A study of Mus musculus with 6 samples.

Results

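Blood and lymphatic endothelial genes were examined in RNA sequencing of inguinal white adipose tissue, the subcutaneous fat of the groin, from female C57 BL/6N mice given as 15 weeks old. A list of 31 genes was used, 25 of blood or shared endothelium and 6 of lymphatic endothelium. Its members were found by matching gene symbols to the Ensembl identifiers of the deposited table. All 31 were among its 25894 genes, and all 31 were among the 22290 genes tested, those with a mean normalised value of at least 1. In 3 mice, 8 weeks of sleep fragmentation were followed by 2 weeks of sleep recovery (fragmented, recovered 1 to 3), and 3 mice were controls (control 1 to 3). All 6 mice were fasted for 10 h, each library came from 1 mouse, and the question was which transcripts still differed from controls after the recovery sleep. No group was sampled at the end of fragmentation, so the libraries hold no value from before recovery. The labels do not say whether the mice of a group shared a cage or litter.

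Blood vessels in fat are lined by endothelial cells held together by VE-cadherin, claudin-5 and related junction proteins. These cells respond to vascular endothelial growth factors through the receptors encoded by Kdr and Flt1, and to angiopoietins through the receptor encoded by Tek. In adipose tissue the capillary endothelium passes fatty acids and insulin from blood to adipocytes. Lymphatic vessels, which drain fluid, lipid and immune cells, depend on the transcription factor Prox1 and on the vascular endothelial growth factor receptor encoded by Flt4. ETS factors such as Erg and the SoxF factors Sox7, Sox17 and Sox18 act on many endothelial promoters.

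RefSeq promoter windows (build GRCm38.p6, 250 bases before to 50 after the start) were on hand for 17 of the 31 members. Those of Robo4, Eng, Kdr and Mmrn1 are shown because they stand for the patterns described further on: Robo4 and Eng had groups that did not overlap, Kdr had the lowest difference among the blood members, and Mmrn1 had the lowest among the lymphatic members with a single window. Capitals mark CAGGAA, a form of the ETS recognition sequence, or its reverse complement TTCCTG. The Robo4 window lies at chr9:37401722-37402021 on the plus strand, the Eng window at chr2:32646345-32646644 on the plus strand, the Kdr window at chr5:75978406-75978705 on the minus strand and the Mmrn1 window at chr6:60944067-60944366 on the plus strand.
Robo4: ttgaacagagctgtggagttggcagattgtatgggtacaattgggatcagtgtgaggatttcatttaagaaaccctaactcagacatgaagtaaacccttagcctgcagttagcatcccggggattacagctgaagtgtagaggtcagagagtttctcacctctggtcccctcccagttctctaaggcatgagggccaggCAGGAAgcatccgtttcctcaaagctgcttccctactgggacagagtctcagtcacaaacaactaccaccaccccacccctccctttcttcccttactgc
Eng: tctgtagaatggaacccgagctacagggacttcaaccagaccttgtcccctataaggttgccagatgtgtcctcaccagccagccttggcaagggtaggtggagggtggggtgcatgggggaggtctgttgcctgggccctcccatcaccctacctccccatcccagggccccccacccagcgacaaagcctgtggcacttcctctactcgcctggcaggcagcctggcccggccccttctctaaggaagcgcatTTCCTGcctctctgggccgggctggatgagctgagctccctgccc
Kdr: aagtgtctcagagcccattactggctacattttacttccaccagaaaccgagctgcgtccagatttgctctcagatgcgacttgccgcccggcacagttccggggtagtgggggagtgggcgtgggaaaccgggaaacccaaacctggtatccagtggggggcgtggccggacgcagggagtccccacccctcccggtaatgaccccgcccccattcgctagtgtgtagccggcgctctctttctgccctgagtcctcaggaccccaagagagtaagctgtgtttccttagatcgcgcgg
Mmrn1: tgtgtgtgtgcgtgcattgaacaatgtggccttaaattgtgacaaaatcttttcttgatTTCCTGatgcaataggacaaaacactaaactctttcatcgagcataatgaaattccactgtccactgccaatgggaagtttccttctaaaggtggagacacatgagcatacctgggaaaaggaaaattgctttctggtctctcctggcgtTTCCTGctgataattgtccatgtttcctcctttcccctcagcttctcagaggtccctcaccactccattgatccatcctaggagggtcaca

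Searched on both strands, CAGGAA was found in at least 1 window of 9 of the 17 members, or 52.9%, against 30.5% of 32544 windows of all genes. Some members have several windows, 23 for the 17 members, so the member share and the window share are not counted alike: 10 of the 23 member windows held it. The shorter GGAAG, which overlaps CAGGAA in part, was in 17 of the 23 windows against 71.3% of all windows. AACAAT, a SOX sequence, was in 4 of the 23 windows, those of Emcn, Mmrn1 and Tek and 1 of Erg, against 10.6% of all windows. TGTTTA, read by forkhead factors, was in 4 of the 23 against 13.4% of all windows. AGATAA, read by Gata1 and its relatives, was in 3 of the 23 against 11.2% of all windows. The Kdr window held no CAGGAA and the Mmrn1 window held 2. These matches describe letters in the windows only.

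Endothelial transcripts were abundant in every library. Per kilobase of exon, 27 of the 31 members lay above the median of all tested genes (35.1 normalised reads per kilobase) and 9 lay in the top 10% of genes. The highest was Cldn5, the tight junction protein of endothelium, at a mean of 1323 normalised reads per kilobase. Eng, a co-receptor for ligands of the bone morphogenetic protein family, followed at 888.6, Cdh5, which encodes VE-cadherin, at 875.7, Sox18 at 846.0 and Pecam1, the adhesion molecule CD31, at 792.3. The ranges of Eng, Cdh5, Sox18 and Pecam1 over the 6 libraries overlapped on this scale. Among the lymphatic members Lyve1, a hyaluronan receptor also made by some macrophages, was highest at 298.6 per kilobase. Pdpn, a mucin-like membrane protein of lymphatic and other stromal cells, had 105.8. Mmrn1 had 38.4, Flt4 28.6, Prox1 10.2 and Reln 8.43. The plot of levels by library shows both groups on this scale.

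**Figure D1:**
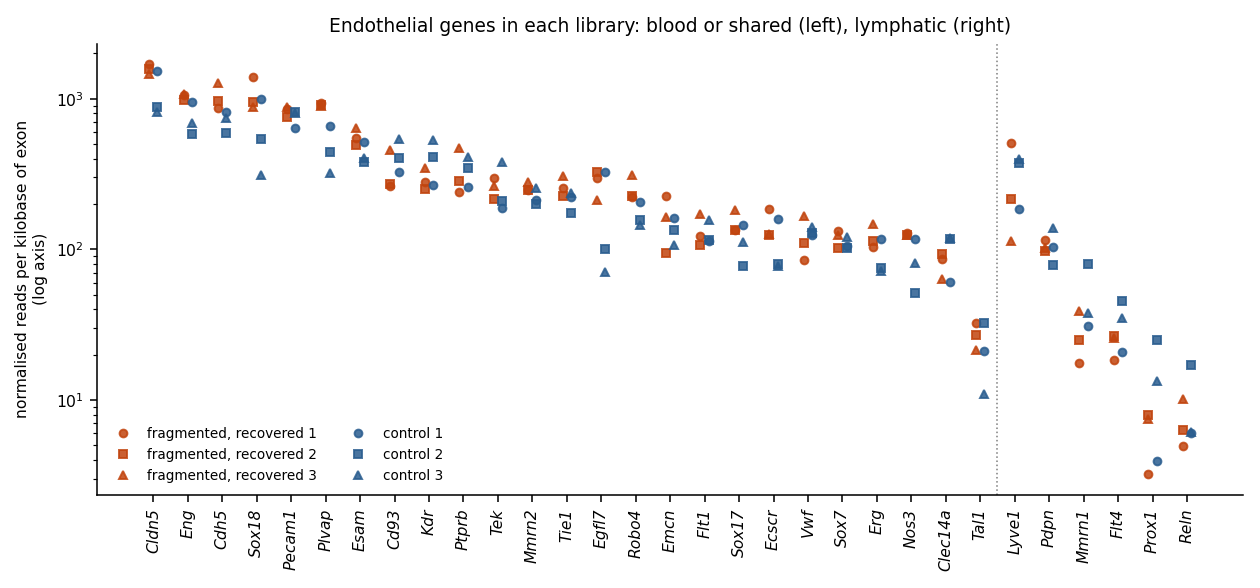
Normalised reads per kilobase of exon (log axis) for each member in each of the 6 libraries, blood or shared genes to the left of the dotted line and lymphatic genes to the right, each ordered by mean level. Orange points are the fragmented, recovered mice and blue points the controls. Cldn5 is highest at a mean of 1323 per kilobase, and Prox1 and Reln are lowest at 10.2 and 8.43.

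Blood endothelial genes had on balance higher values in the fragmented, recovered mice and lymphatic genes lower ones, and no member passed the threshold. The median log2 difference (fragmented, recovered minus control, on the log2(value + 1) scale) was 0.39 over the 25 blood members and -0.42 over the 6 lymphatic members, against 0.02 over all genes tested. Among the blood members 20 differences were above 0 and 5 below. All 6 lymphatic differences were below 0, that of Pdpn by less than 0.01. Over all genes, 51.6% of differences were above 0. In a bulk tissue sample, fewer cells of a type and less RNA per cell cannot be told apart.

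By limma with Benjamini-Hochberg adjustment over all genes, 0 of 31 members and 0% of the 22290 genes passed at an FDR of 0.05 (smallest adjusted p = 0.697, with 1201 genes at an unadjusted p under 0.05). The members with an unadjusted limma p under 0.05 numbered 3, all higher (9.68% of the 31), against 5.39% of all genes (3.24%, or 723, higher and 2.14%, or 478, lower). With library size scaling that split was 1101 higher and 202 lower, and with DESeq2 456 higher and 795 lower. edgeR and DESeq2 on recovered reads also called 0 genes, with 1018 and 1251 at an unadjusted p under 0.05, and limma-voom with sample quality weights called 0 with 5349. The groups did not overlap for 5 members (16.1%), against 8.59% of all genes: Plvap, Robo4, Cdh5, Eng and Nos3. In these 5 the fragmented, recovered mice were the higher group, as in 5.02% of all genes, and in 0 members they were the lower group, as in 3.58% of all genes. Without control 1, 844 genes and 3 members passed the FDR of 0.05.

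**Figure D2:**
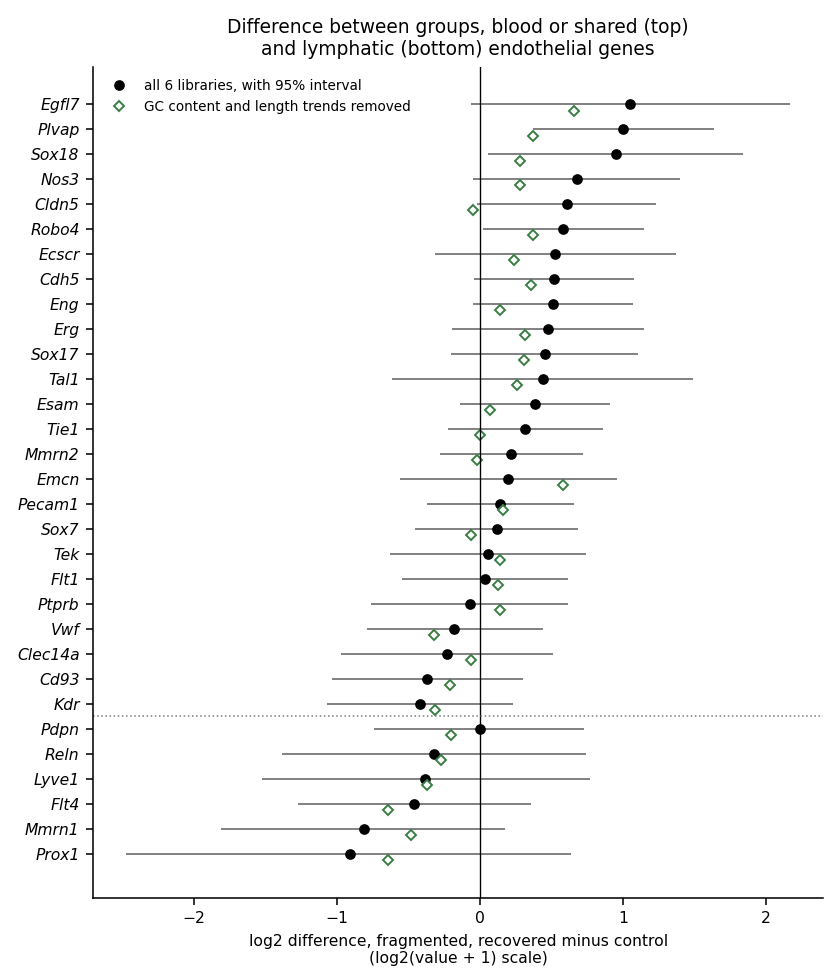
Log2 difference of each member, fragmented, recovered minus control, with its 95% interval from limma over all 6 libraries (black), and the difference after trends on GC content and exon length were removed from each library (green diamonds). The intervals of Plvap, Sox18 and Robo4 lie above 0, the other 28 intervals reach across 0, and 17 of 25 blood members and 0 of 6 lymphatic members lie above 0 once trends are removed.

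Plvap, which forms the diaphragms of caveolae and fenestrae, had the smallest p among the members. The fragmented, recovered mice 1 to 3 had normalised values of 1859, 1813 and 1779, and controls 1 to 3 had 1315, 885.1 and 636.1. The 3 fragmented, recovered mice lay close together (1817 ± 40.2, SD, n = 3) and above every control (945.5 ± 343.6). The log2 difference was 1.00 (SE 0.28, limma adjusted p = 0.697, unadjusted p under 0.05). After correction of each library for GC content and exon length it was 0.37 (SE 0.21).

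The receptors for vascular endothelial growth factors had differences near or below 0. Kdr, the main signalling receptor on blood endothelium, had values of 2515, 2285 and 3126 in the fragmented, recovered mice and 2430, 3710 and 4778 in the controls. Controls 2 and 3 were higher than every fragmented, recovered mouse, and control 1 fell within their range. The log2 difference of Kdr was -0.42 (SE 0.29), the lowest of the 25 blood members. After the GC and length correction that of Kdr was -0.31 (SE 0.26). Flt1, a high-affinity receptor that also acts as a decoy, had 0.04 (SE 0.26, 95% interval -0.54 to 0.62). The angiopoietin receptor Tek had 0.06 (SE 0.30) and its partner Tie1 had 0.32 (SE 0.24), or -0.00 (SE 0.27) after the GC and length correction. Ptprb, a phosphatase that acts on the Tek receptor and on VE-cadherin, had values of 3205, 3771 and 6231 against 3473, 4623 and 5456, and a difference of -0.07 (SE 0.31). For Tek, Flt1 and Ptprb the direction turned under some settings.

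The junction genes had differences above 0. Cdh5 had values of 3635, 4035 and 5377 in the fragmented, recovered mice and 3405, 2486 and 3146 in the controls. The groups did not overlap, although fragmented, recovered 1 and control 1 lay close to each other. The difference of Cdh5 was 0.52 (SE 0.25). Cldn5 had 2392, 2220 and 2068 against 2173, 1238 and 1154, so control 1 lay among the fragmented, recovered mice and controls 2 and 3 lay far below them. Its difference was 0.61 (SE 0.28), and -0.05 (SE 0.22) after the GC and length correction. Esam, an adhesion molecule of endothelial tight junctions, had 1581, 1417 and 1839 against 1471, 1085 and 1152, with a difference of 0.39 (SE 0.23), and 0.07 (SE 0.24) after that correction. Pecam1, at 5341, 4673 and 5503 against 3998, 5118 and 4975, varied least among these and had a difference of 0.14 (SE 0.23).

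The surface receptors and signalling genes Eng, Robo4 and Nos3 had groups that did not overlap. Eng had values of 4306, 3942 and 4319 in the fragmented, recovered mice and 3866, 2374 and 2776 in the controls, a difference of 0.51 (SE 0.25). Robo4, a receptor that stabilises vessels, had 1181, 1199 and 1641 against 1097, 824.0 and 768.7, a difference of 0.58 (SE 0.25, limma adjusted p = 0.697, unadjusted p under 0.05). Nos3, the endothelial nitric oxide synthase, had 529.8, 518.1 and 511.9 against 483.9, 212.5 and 333.1, a difference of 0.68 (SE 0.32). After the GC and length correction Eng had 0.14 (SE 0.24), Nos3 0.28 (SE 0.30) and Robo4 0.37 (SE 0.24). In all 3 genes control 1 was the control nearest to the fragmented, recovered mice. Egfl7, a secreted endothelial protein whose gene hosts a microRNA, had the highest difference of all members at 1.05 (SE 0.50). Its values were 1073, 1174 and 755.7 against 1161, 361.7 and 251.8, so the groups overlapped through control 1, and the corrected difference was 0.66 (SE 0.40).

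Among the transcription factors the 3 SoxF genes did not have like differences. Sox18 had values of 2270, 1549 and 1431 in the fragmented, recovered mice and 1602, 868.1 and 502.4 in the controls, a difference of 0.95 (SE 0.40, limma adjusted p = 0.697, unadjusted p under 0.05). Control 1 lay among the fragmented, recovered mice. After the GC and length correction the difference of Sox18 was 0.28 (SE 0.28). Sox17, known for its role in arteries, had 0.46 (SE 0.29) and Sox7 had 0.12 (SE 0.26), with Sox7 varying by only 1.31 times between the lowest and the highest library. Whether these differences differed from one another was not tested. Erg, an ETS factor of endothelium, had 0.48 (SE 0.30). Tal1, a factor of endothelial and blood cell development that red cell and mast cell precursors also make, had 0.44 (SE 0.47).

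Cd93 and Clec14a, lectin-like receptors that bind the matrix protein multimerin 2, had differences below 0, while Mmrn2, which encodes multimerin 2, had 0.22 (SE 0.22). Cd93 had values of 1768, 1815 and 3065 against 2172, 2689 and 3613, a difference of -0.37 (SE 0.30). Clec14a had -0.23 (SE 0.33). Vwf, the clotting factor stored in endothelial granules, had -0.18 (SE 0.27). Emcn, a sialomucin of capillaries and veins, had 0.20 (SE 0.34), and Ecscr, a regulator of endothelial migration, had 0.53 (SE 0.37).

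**Figure D3:**
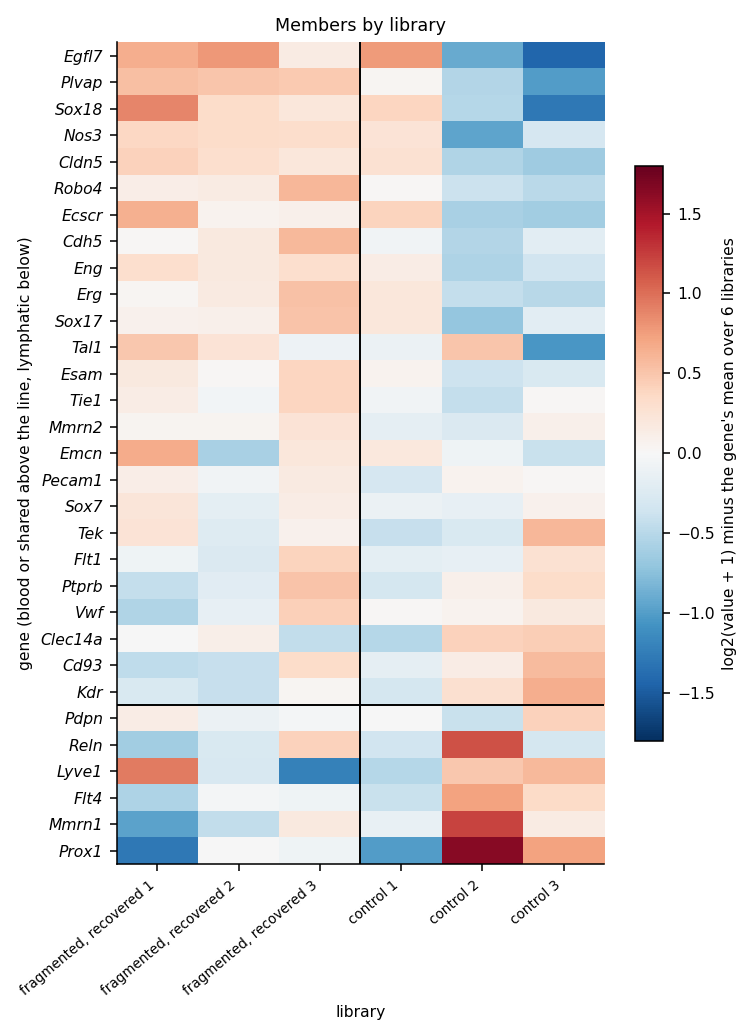
Each cell is 1 gene in 1 library, as log2(value + 1) minus that gene's mean over the 6 libraries, with blood or shared genes above the horizontal line and lymphatic genes below it. Control 1 resembles the fragmented, recovered mice in many blood genes, while controls 2 and 3 are blue for Egfl7, Plvap, Sox18, Nos3 and Cldn5 and red for Kdr and Cd93. The most intense red is Prox1 in control 2, at 1.64.

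Of the 6 lymphatic members, 4 had their highest value in control 2 (Prox1, Flt4, Mmrn1 and Reln), 1 in control 3 (Pdpn) and 1 in fragmented, recovered 1 (Lyve1). Prox1 had values of 27.0, 66.8 and 63.2 in the fragmented, recovered mice and 33.0, 211.4 and 111.4 in controls 1, 2 and 3. The difference was -0.91 (SE 0.69, 95% interval -2.47 to 0.64), and control 1 lay near the bottom of the range. Flt4 had 152.4, 217.7 and 212.2 against 170.5, 371.9 and 287.4, a difference of -0.46 (SE 0.36). Mmrn1, multimerin 1, which platelets also contain, had 102.6, 147.9 and 228.4 against 182.3, 466.8 and 222.8, a difference of -0.81 (SE 0.44). Reln, which encodes the secreted protein reelin, had 118.2, 150.2 and 241.1 against 142.8, 402.4 and 145.9, a difference of -0.32 (SE 0.47). In Mmrn1 and Reln control 2 alone lay above every fragmented, recovered mouse. The direction of Reln turned to 0.17 without control 2.

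Lyve1 and Pdpn did not follow Prox1 in every library. Lyve1 had values of 1476, 631.1 and 333.2 in the fragmented, recovered mice and 540.4, 1085 and 1163 in the controls, so its highest and its lowest value both came from the fragmented, recovered group. Its difference was -0.38 (SE 0.51), turning to 0.13 without fragmented, recovered 3. The macrophage list was also highest in fragmented, recovered 1 and lowest in fragmented, recovered 3, with medians of 0.64 and -0.60 relative to each gene's mean. The part of macrophages in the Lyve1 values was not tested. Pdpn had 209.4, 176.0 and 184.2 against 187.6, 143.6 and 252.9, with a 95% interval of the difference from -0.74 to 0.73.

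The 3 controls differed in how far they lay from the fragmented, recovered mice. Of the 25 blood members, control 1 fell within the range of the fragmented, recovered mice for 14 and below it for 11. Control 2 was below the range for 15 and above it for 3, and control 3 was below for 13 and above for 4. Of the 6 lymphatic members, control 1 was within the range for 6, while control 2 was above it for 4 and control 3 for 3. Fragmented, recovered 3 held the highest value of 12 blood members. Without control 1 the median was 0.49 over the blood members and -0.75 over the lymphatic members. Then 844 of the 22290 genes passed the FDR of 0.05. Among them Egfl7 had 1.70 (limma adjusted p = 0.0342), Plvap 1.27 (adjusted p = 0.0347) and Cldn5 0.89 (adjusted p = 0.0486). With all 6 libraries and the GC and length correction, these 3 members had 0.66, 0.37 and -0.05. limma-voom with sample quality weights gave control 1 a weight of 0.283 and the other libraries 0.871 to 1.73.

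Members were also compared with the median of the 25 blood members in the same library, which sets aside shifts shared by most blood genes. Esam and Tie1 stayed closest to that median, with SDs of 0.07 and 0.12 over the 6 libraries on the log2 scale, down from 0.28 and 0.27. Both are among the members that set the median. The SD also fell for others, such as Cdh5 from 0.37 to 0.17. It rose for some blood members, such as Kdr from 0.41 to 0.59 and Clec14a from 0.41 to 0.61, and for all 6 lymphatic members. Kdr had relative values of -0.41, -0.47 and -0.25 in the fragmented, recovered mice, -0.34 in control 1, and 0.66 and 0.84 in controls 2 and 3. Cd93 had -0.60, -0.49 and 0.03 against -0.18, 0.51 and 0.76. Plvap had 0.40, 0.43 and 0.17 against 0.02, -0.17 and -0.82, so its groups did not overlap on this scale either. Cdh5, Robo4, Eng and Nos3, whose groups did not overlap before, did overlap on this scale. Prox1 had -1.42, -0.07 and -0.38 against -1.02, 2.01 and 0.91.

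The order of the differences followed the GC content of the transcripts and, in reverse, their exon length. Across the 25 blood members the Spearman rho of the log2 difference on GC content was 0.74, and across all 31 members 0.70. Across 22262 tested genes it was 0.38. On exon length, rho was -0.63 across the 31 members and -0.21 across the 22262 genes. These are correlations across genes of the same 6 libraries, and genes are not independent replicates. Plvap, Cldn5 and Sox18, at 60.6%, 60.5% and 60.9% GC, had differences of 0.61 to 1.00. Clec14a, Cd93 and Kdr, at 44.6%, 47.3% and 49.4%, had -0.23, -0.37 and -0.42. Over all genes, the Spearman rho between transcript GC content and the deviation of a library from the gene means was -0.27 in both control 2 and control 3 and 0.13 to 0.37 in the other libraries. After the GC and length correction, rho on GC content over the blood members was 0.17 and their median difference was 0.14. Of these members 17 were above 0, and 0 had an unadjusted limma p under 0.05. The lymphatic median was -0.42 after this correction as well. The correction removed both trends at once, so the parts of GC content and exon length were not told apart. Emcn, the member lowest in GC at 40.7%, had 0.58 after removal against 0.20 before.

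**Figure D4:**
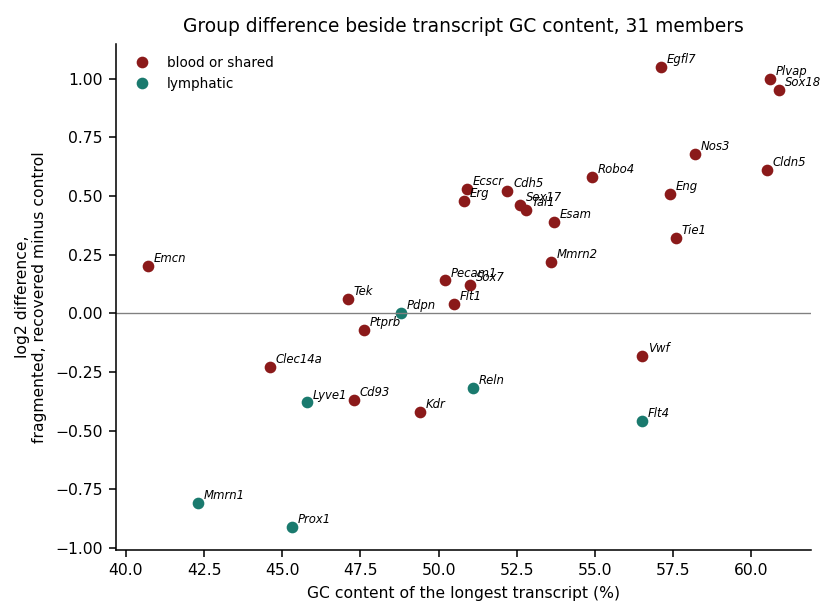
Log2 difference of each of the 31 members (fragmented, recovered minus control) against the GC content of its longest transcript in percent, with blood or shared genes in dark red and lymphatic genes in green. Most blood genes climb from Cd93 and Kdr at 47.3% and 49.4% to Plvap and Sox18 at 60.6% and 60.9%, with Emcn, Vwf and the lymphatic Flt4 away from that band.

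Markers of other tissues also varied between the libraries. B cell markers, 12 of 12 tested, had summed normalised values of 11325, 26866 and 12247 in fragmented, recovered 2 and controls 2 and 3, and 145, 86 and 108 in fragmented, recovered 1 and 3 and control 1. Glycam1, made by the high endothelial venules of lymph nodes, was at 5484, 1968 and 402.1 in the same 3 libraries and at 0 in the other 3. Lymphatic medians relative to each gene's mean were 0.93 and 0.38 in controls 2 and 3 and -0.19 in fragmented, recovered 2. With the B cell score as a covariate the lymphatic median was -0.23 and the blood median 0.27. Between the 3 libraries low in B cell markers, a comparison with 1 control, the lymphatic median was 0.16 and the blood median 0.25. Between the 3 libraries high in them, with 1 fragmented, recovered mouse, the medians were -0.76 and 0.34. Skeletal muscle markers summed to 91274 in fragmented, recovered 1 and 11475 in control 2, and to between 593 and 2450 in the others. Without those 2 libraries the lymphatic median was -0.09 and the blood median 0.20. Mammary epithelium markers, 12 of 12 above 0 with a median of 0.99, were lowest in controls 2 and 3, the libraries lowest in Plvap. In the mammary list Krt19 and Krt7, keratins of simple epithelia, had 1.56 (SE 0.65) and 1.25 (SE 0.53). Of the other marker lists, the genes with an unadjusted limma p under 0.05 were Ly6d of keratinocytes at 1.41 (SE 0.54), C1qa of macrophages at 1.24 (SE 0.52), Acvr1c of adipocytes at -0.93 (SE 0.36), Hba-a2 of red cells at -0.86 (SE 0.34) and Ppbp of platelets at -1.38 (SE 0.59). Each of these genes was the only one of its list at that p, against 5.39% of all genes. Genes above and below 0 numbered 9 and 1 in the keratinocyte list, 6 and 6 in the macrophage list and 10 and 2 in the adipocyte list. They numbered 3 and 4 in the red cell list and 4 and 5 in the platelet list. Acvr1c thus went against most of its list. The part of these tissues and cells in the endothelial values was not tested.

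**Figure D5:**
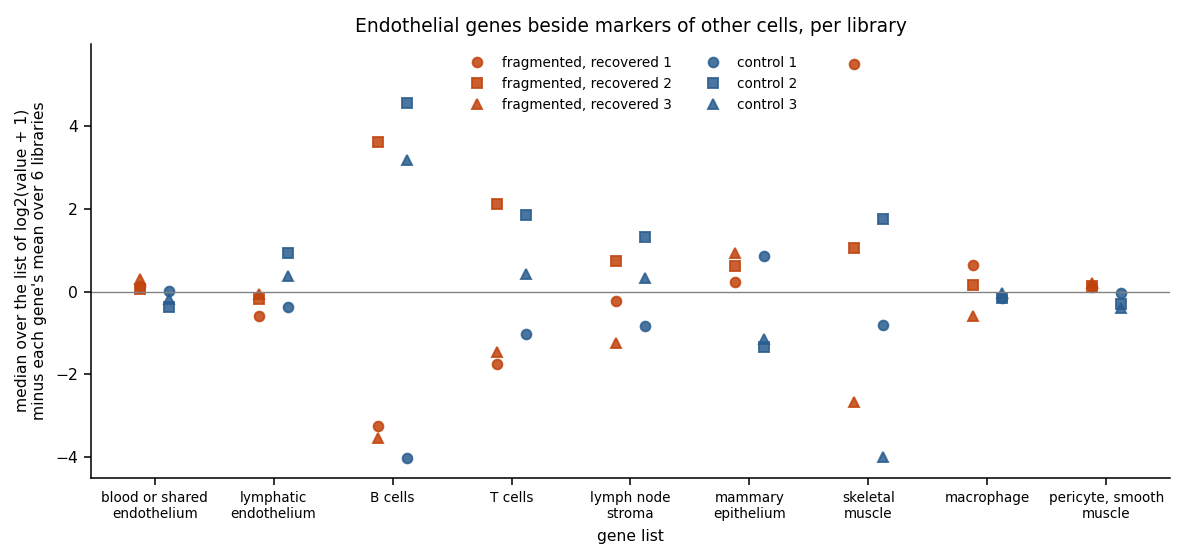
Median over each gene list of log2(value + 1) minus each gene's mean over the 6 libraries, for the endothelial members and for markers of other cells, with orange for fragmented, recovered mice and blue for controls. The lymphatic list is highest in controls 2 and 3 (0.93 and 0.38), B cell markers are high in those 2 libraries and in fragmented, recovered 2, and mammary epithelium markers are low in controls 2 and 3.

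The partners of the members were described from lists, by counts beside the 5.39% of all genes with an unadjusted limma p under 0.05. In each list 0 genes passed the FDR of 0.05. Of 13 ligands and partners of the growth factor and angiopoietin receptors, 0 had an unadjusted p under 0.05, with a median of -0.12. Vegfa, the main ligand of the Kdr receptor, had 0.13 (SE 0.23), Vegfc, a ligand of the Flt4 receptor, 0.06 (SE 0.42) and Angpt1, which activates the Tek receptor, -0.12 (SE 0.40). Nrp1, a co-receptor, had values of 2198, 2145 and 2522 against 2131, 3016 and 4440, and a difference of -0.42 (SE 0.29). Nrp1 was thus high in the same controls as Kdr. After the GC and length correction Nrp1 had 0.01 and Kdr -0.31. Svep1, a matrix protein that binds the Tie1 receptor, had -0.41 (SE 0.35).

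Genes of Notch and bone morphogenetic protein signalling had a median of 0.55 over 17 tested, with 14 above 0. Of these, 5 had an unadjusted limma p under 0.05 and were higher, and 1 was lower. Hes1, a Notch target, had values of 528.7, 653.1 and 607.6 in the fragmented, recovered mice and 574.5, 152.6 and 91.4 in the controls, a difference of 1.56 (SE 0.57). Id1, a target of bone morphogenetic protein signalling, had 1.22 (SE 0.45), Dll1 1.02 (SE 0.41), Smad6 0.78 (SE 0.31) and Notch4, a Notch receptor of endothelium, 0.55 (SE 0.24). Bmpr2, a receptor of the same pathway, had -0.93 (SE 0.38). After the GC and length correction the median of the list was 0.19, and Hes1, at 1.30, was the 1 gene of the list with an unadjusted limma p under 0.05.

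Capillary and lipid-handling genes had a median of 0.43 over 15 tested, with 10 above 0. Car4, a carbonic anhydrase of capillaries, had 1828, 1033 and 1213 against 1153, 267.9 and 379.9, a difference of 1.43 (SE 0.49). Gpihbp1, which carries lipoprotein lipase to the capillary surface, had 3590, 2052 and 2032 against 2589, 828.6 and 659.5, a difference of 1.13 (SE 0.48). Car4 and Gpihbp1 were the 2 of the list with an unadjusted limma p under 0.05. Both were low in controls 2 and 3 only, as Egfl7 was. After the GC and length correction the median of the list was 0.08, Car4 had 1.14 and Gpihbp1 0.79, and Car4 alone had an unadjusted limma p under 0.05. Lpl, the lipase itself and chiefly an adipocyte transcript, had a difference of -0.58 (SE 0.52), or -0.21 after that correction. All 3 fragmented, recovered mice lay below all controls, as in 3.58% of all genes. Fragmented, recovered 3 and control 1 were nearly equal, at 182700 and 183200. Lpl was the 1 gene of the list with that order. In 2 others the fragmented, recovered mice lay above all controls, as in 5.02% of all genes.

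Other junction, adhesion and receptor genes of endothelium had a median of 0.03 over 23 tested, with 2 higher and 2 lower at an unadjusted limma p under 0.05. Calcrl and Ramp2, which together form an adrenomedullin receptor of endothelium, lay in opposite directions. Calcrl, at 37.8% GC, had 723.7, 586.4 and 789.1 against 770.6, 2000 and 1978, a difference of -1.06 (SE 0.37). Ramp2, at 56.7% GC, had 1705, 989.1 and 1111 against 994.4, 525.6 and 325.3, a difference of 1.15 (SE 0.40). After the GC and length correction Calcrl had -0.59 and Ramp2 0.75. Vcam1, an adhesion molecule that lymph node stroma also makes, had -1.25 (SE 0.49), and Shank3 had 0.81 (SE 0.28) with groups that did not overlap.

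Artery genes had a median of 0.10 over 11 tested and 0 with an unadjusted limma p under 0.05. After Nrp1, which the list shares, Fbln5 and Fbln2, matrix proteins of elastic fibres, were the most abundant and had 0.14 (SE 0.24) and 0.10 (SE 0.28). Genes of veins and high endothelial venules had -0.28 over 12 tested, with 4 above 0 and 8 below. With the B cell score as a covariate their median was 0.21, with 7 above 0 and 5 below. In that list Lrg1, which adipocytes and neutrophils also make, was higher at 1.02 (SE 0.41), or 0.28 after the GC and length correction. Lrg1 had 3651 in fragmented, recovered 1, and 1497 and 1593 in fragmented, recovered 2 and 3, with control 1 at 1574. Other ETS, GATA and forkhead regulators had -0.15 over 16 tested and 0 with an unadjusted limma p under 0.05. Ets1, which lymphocytes also make, was highest in controls 2 and 3 and fragmented, recovered 2, at 7176, 4529 and 3782, and had a difference of -0.63 (SE 0.52). Foxo1 had -0.37 (SE 0.30). Other lymphatic genes had -0.16 over 18 tested, with 7 above 0 and 11 below. Klhl4 at -1.14 (SE 0.38) and Sema3d at -1.59 (SE 0.69) were the 2 with an unadjusted limma p under 0.05. The median of this list was -0.01 after the GC and length correction and -0.05 with the B cell covariate, each with 9 above 0 and 9 below. Pericyte and smooth muscle genes, which mark the cells around vessels, had 0.41 over 11 tested, with 9 above 0. The contractile genes Acta2, Cnn1 and Myh11 had 1.36 (SE 0.53), 1.15 (SE 0.39) and 0.71 (SE 0.31). Acta2 was lowest in controls 2 and 3, at 1212 and 872.3. Of the rest of the list, Des had 0.86, Kcnj8 0.58, Tagln 0.41, Notch3 0.13, Pdgfrb 0.11 and Rgs5 0.08. Cspg4 had -0.25 and Abcc9 -0.32. The median of the list was 0.25 after the GC and length correction.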

How the data were processed

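The deposited table gives a signal per gene and library. The values behave as counts that the authors scaled by 1 divisor for each library, a step for which no source used here gives an account. Per the submitters' processing notes, CASAVA, HISAT2 2.0.5, featureCounts 1.5.0-p3 and build mm8 were used; whether counting used strand is not given in the sources used here, so antisense overlaps cannot be told apart. Taking a library's lowest nonzero value as 1 read turned 100% of values into whole reads, to within 0.02, with totals of 15610201 to 19703569 reads per library. Symbols came from a reference table of gene names (33 identifiers unmatched). Exon lengths and transcript GC content came from GENCODE M21, known for 99.87% of the tested genes. Its build differs from mm8, so gene coordinates are given only for RefSeq promoter windows.

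limma 3.58.1 (R 4.3.3) with an intensity trend was run on log2(value + 1) for genes with a mean of at least 1, two-sided, with Benjamini-Hochberg adjustment over all genes. A fold on this scale understates changes of low genes. edgeR 4.0.16, DESeq2 1.42.0 and limma-voom on recovered reads were alternatives, beside scaling, filters, pseudocount, the replicate number as a block, libraries left out, a B cell score and GC and length trends (splines of 4 degrees of freedom). On simulated counts for this comparison, 22290 genes entered and limma made 56 calls, 1 of them false. It called 0% of the 2-fold changes, 13.4% of the 4-fold changes and 69.7% of the 8-fold changes, all set in genes with a mean of at least 50.

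The members and lists were chosen with earlier results of these data known. All 31 members are named. Values in every library are given for members with an unadjusted p under 0.05 or groups that do not overlap, the lymphatic members and the 10 highest per kilobase. From other lists, genes with an unadjusted p under 0.05 or the most abundant were named by rule (not given for the lists of lymphocytes, lymph node stroma, mast cells, fibroblasts and muscle). Vegfa, Vegfc, Angpt1, Fbln2, Lpl and Glycam1 were chosen after their values were seen. So were the pericyte and smooth muscle genes not named by rule and the per-library values of Egfl7 and of list genes. Marker lists for T cells, platelets, red cells, mast cells, adipocytes, fibroblasts and keratinocytes had medians of -0.72, -0.31, -0.05, -0.43, 0.10, -0.04 and 0.64, and lymph node stroma and macrophages -0.40 and 0.15.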

Additional observations from a re-analysis of the deposited data

How the results depend on the processing

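With all 6 libraries, 0 genes passed the FDR under each normalisation, filter, pseudocount, test, block and covariate run. Leaving out 1 library gave 0 to 844 genes and 0 to 3 members past it, 1 to 12 members higher and 0 to 4 lower at an unadjusted p under 0.05, and medians of 0.22 to 0.49 (blood) and -0.75 to -0.22 (lymphatic). The 844 genes, the 3 members and the 12 higher and 4 lower came without control 1, where 13.0% of all genes were higher and 11.4% lower at that p. Against 3 members higher and 0 lower with all libraries, library size scaling gave 8 higher (4.94% of all genes were higher), limma-voom with quality weights 12 higher and 2 lower (13.6% and 10.4% of all genes), and DESeq2 and the B cell covariate 1 higher each (2.06% and 2.20%). Removing GC and length trends gave 0 higher and a blood median of 0.14. Leaving out the 2 muscle-rich libraries gave 0 higher and a blood median of 0.20. Without the 3 libraries high in B cell markers (2 against 1, where the lone control is assumed to vary like the others) 0 were higher and the lymphatic median was 0.16. Without the 3 low in them (1 against 2) the blood median was 0.34 and the lymphatic median -0.76. The 2 settings by B cell markers were chosen after seeing the data. Library size scaling moved the median of all genes to 0.14.

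The replicate block gave 8 members higher at an unadjusted p under 0.05 and 0 past the FDR, with 6.10% of all genes higher and 5.90% lower at that p. Same-numbered libraries had correlated deviations of 0.177, 0.393 and 0.042, not all over 0.1, and different-numbered ones -0.356 to 0.208. Control 1 correlated more with fragmented, recovered 3 (0.208) than with 1. The labels give the numbers no shared litter, batch or day, so they were not used as pairs.

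Leaving out 1 library at a time gave lowest and highest values of -0.14 and 0.37 for Tek, -0.15 and 0.19 for Flt1, -0.43 and 0.05 for Vwf, -0.09 and 0.54 for Emcn, -0.35 and 0.13 for Ptprb, -0.94 and 0.13 for Lyve1, -0.20 and 0.21 for Pdpn and -0.61 and 0.17 for Reln. Tek had -0.00 with DESeq2 and -0.17 with quality weights. Pdpn had 0.02 with TMM and 0.12 with library size scaling, where Ptprb had 0.05. Emcn had -0.04 with the B cell covariate. Removing GC and length trends gave Tie1 -0.00, Cldn5 -0.05, Sox7 -0.06, Mmrn2 -0.02 and Ptprb 0.14. Without the muscle-rich libraries Tek had -0.17, Vwf 0.04, Emcn -0.08, Sox7 -0.00, Ptprb 0.15, Prox1 0.09 and Reln 0.40. Without the 3 libraries high in B cell markers Kdr had 0.21, Egfl7 -0.37, Ptprb 0.36, Cd93 0.10, Clec14a 0.28, Ecscr -0.04, Prox1 0.32, Lyve1 0.38, Flt4 0.08, Pdpn 0.07 and Reln 0.24. Without the 3 low in them Pecam1 had -0.11, Tek -0.39, Flt1 -0.32, Emcn -0.34 and Sox7 -0.13. For settings that only leave out libraries fewer samples were compared, and for the others the cause was not tested. In the simulation limma recovered 0% of 2-fold changes with 3 mice per group. The changed genes were drawn from all genes with a mean of at least 50, and no GC trend or outlying library was simulated. SEs of the members ran from 0.22 (Mmrn2) to 0.69 (Prox1), against a median of 0.51 over all genes tested. The simulation thus does not say whether single differences of the size seen in most members were detectable.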
